A study of Mus musculus with 16 samples.

Results

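The 10 genes described here encode keratins of the interfollicular epidermis, the sheet of skin between the hair follicles, or keratins induced there by wounds. They were chosen by name and by where the proteins are known to be made, after earlier results of these data had been seen. All 10 were among the 45706 gene identifiers of the count table. The study clipped the ear skin of 8 male C57Bl/6J mice at 24 months, labelled young, and took the other ear of the same animals at 30 months, labelled old. Ages in the labels ran from 23.8 to 24.4 months at the first biopsy and from 29.0 to 30.1 months at the second, and each mouse gave 1 library at each age. The labels name no transgene and no treatment, and a clip through the ear holds muscle, cartilage and fat beside the epidermis.

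Keratins form the intermediate filaments of epithelial cells, and each filament is built from pairs of an acidic type I and a basic type II chain. Dividing basal keratinocytes make Krt5 with Krt14, and many also make the type I chain Krt15. Cells that leave the basal layer switch to Krt10 with Krt1, and in the ear, tail and sole of the mouse Krt2 is a major type II partner of Krt10. Krt6a, Krt6b, Krt16 and Krt17 are made in the follicle and are known for appearing in the epidermis after wounding and in inflamed skin. In a whole ear clip, reads of keratins that are also made in the follicle cannot be placed in either site.

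The type II genes Krt1, Krt2, Krt5, Krt6a and Krt6b lie together on chromosome 15, and the type I genes Krt10, Krt14, Krt15, Krt16 and Krt17 lie on chromosome 11, all on the minus strand (GRCm38, GENCODE M21). Krt1 (ENSMUSG00000046834) spans chr15:101845426-101850794 and Krt2 (ENSMUSG00000064201) spans chr15:101810689-101818169. Krt10 (ENSMUSG00000019761) spans chr11:99385254-99389364. Because the reads were 50 bases long, near-identical copies limit what a count can say. The longest coding transcript of each keratin was therefore compared first with the transcripts of other genes. No 50-base stretch of this transcript of Krt1 or of Krt2 occurred in another gene. For Krt1 it has 2455 bases, and the rest of the 4415 bases of annotated exon was not searched. In contrast, 62% of the 50-base stretches of Krt6a and 50.1% of those of Krt6b were also found elsewhere, mostly in each other, and 972 were common to the pair.

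The coding regions of Krt6a and Krt6b were identical at 97.6% of 1662 aligned bases over 9 coding exons. Coding exon 5 did not differ at any of its 165 bases, so a read inside it cannot be assigned to either gene, while coding exon 4 differed at 12 of 96 bases. These 2 exons are shown to let a reader see both situations, with the differing bases in capitals. Exon 4 lies at chr15:101692481-101692576 in Krt6a and at chr15:101678300-101678395 in Krt6b, and exon 5 lies at chr15:101692188-101692352 in Krt6a and at chr15:101678009-101678173 in Krt6b. All are written 5′ to 3′ on the coding strand, from the GENCODE M21 transcripts.
Krt6a coding exon 4: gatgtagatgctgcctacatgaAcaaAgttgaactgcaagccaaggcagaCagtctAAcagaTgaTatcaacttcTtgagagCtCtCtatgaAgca
Krt6b coding exon 4: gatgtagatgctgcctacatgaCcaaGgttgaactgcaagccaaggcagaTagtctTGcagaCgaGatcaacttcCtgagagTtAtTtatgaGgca
Krt6a and Krt6b coding exon 5: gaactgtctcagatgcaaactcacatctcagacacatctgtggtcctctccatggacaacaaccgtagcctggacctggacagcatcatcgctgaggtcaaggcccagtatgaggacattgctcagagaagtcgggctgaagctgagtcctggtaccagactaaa

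The counts of Krt6a and Krt6b are therefore uncertain against each other. Krt16 shared 37.6% of its 50-base stretches with other genes, Krt14 shared 14.4%, most of them with Krt16, and Krt5 shared 12.2%. The share was 3.99% for Krt17, 2.44% for Krt10 and 0.666% for Krt15. Exons of annotated genes on the opposite strand overlapped 19.5% of the exon bases of Krt6a (Gm49428) and 6.91% of those of Krt10 (Gm11940), and the library kit does not mark the strand.

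In total, the libraries held between 22967222 and 36162431 reads on genes, and 20116 genes passed the filter on low counts, all 10 keratins among them. The 10 keratins took 3.26% to 4.45% of the reads on genes at 24 months (mean 3.96% ± 0.441, SD, n = 8) and 2.1% to 4.39% at 30 months (3.35% ± 0.788, SD, n = 8). Within mice the share changed by a mean of -0.27 ± 0.44 (SD, n = 8) on the log2 scale and was higher in 3 mice, and the mean was -0.15 without mouse 29. In whole ear RNA, fewer keratinocytes and less keratin RNA per keratinocyte cannot be told apart.

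Among the keratins, Krt2 and Krt10 dominated. Compared per length, as RPKM, the normalised read count divided by the kilobases of annotated exon, Krt2 stood at 6217 ± 767, Krt10 at 5383 ± 682, Krt14 at 2483 ± 190 and Krt5 at 2041 ± 214 at 24 months (SD, n = 8). Krt15 followed at 916 ± 162, Krt16 at 209 ± 15.6, Krt17 at 208 ± 46.3, Krt1 at 107 ± 20, Krt6a at 70.6 ± 10.5 and Krt6b at 24.1 ± 5.36 RPKM. Krt16 and Krt17 did not differ beyond their spread, and the level of Krt1 was 192 ± 36 RPKM when only its longest coding transcript was used as length, which puts it within the spread of these genes. Krt2 was above Krt10 in every library at 24 months, with a per-length ratio of 1.08 to 1.26, and the ratio ranged from 0.728 to 1.34 at 30 months.

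**Figure D1:**
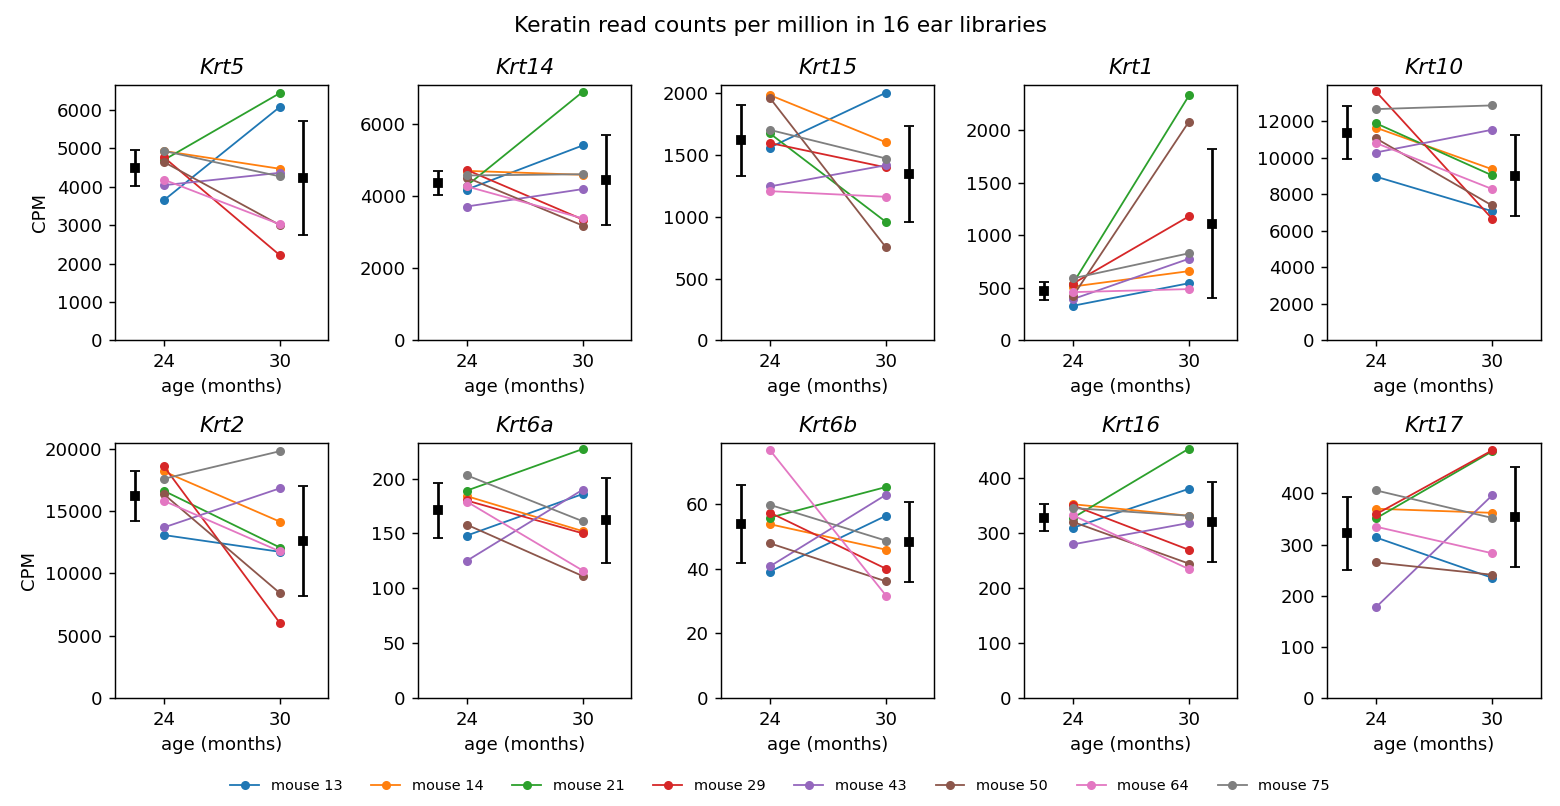
Normalised counts (CPM, vertical axes from 0) of each keratin at 24 and 30 months, with a line for each of the 8 mice and black squares with bars for the mean ± SD of each age. Krt1 lines all point upwards, with mice 21 and 50 at 2331 and 2083 CPM, and in most panels the points are wider apart at 30 months.

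Among the suprabasal keratins, Krt1 was higher at 30 months in each of the 8 mice, whereas Krt10 and Krt2, which were far more abundant, were lower in 6 of 8 mice each. None of the 10 keratins passed an adjusted p of 0.05 in the paired edgeR quasi-likelihood test, and neither did any other gene, so 0% of the 20116 genes tested were called. At an unadjusted p under 0.05 stood Krt1 and Krt10, 2 of 10, against 12.2% of all genes tested.

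In CPM, the count scaled to the library's normalised total, Krt1 was 329, 512, 539, 539, 392, 418, 459 and 590 at 24 months in mice 13, 14, 21, 29, 43, 50, 64 and 75. At 30 months the same mice gave 544, 659, 2331, 1181, 777, 2083, 488 and 829 CPM. Mice 21, 50 and 29 were the highest, and 6 of the 8 libraries at 30 months lay above every library at 24 months. The mean went from 472 ± 88.2 to 1111 ± 711 CPM (SD, n = 8 each), with within-mouse log2 changes between 0.09 in mouse 64 and 2.32 in mouse 50. In the paired edgeR test its log2 change was 1.02 with a standard error of 0.25, and the adjusted p was 0.215. An exact two-sided sign-flip permutation test over the 8 mice gave p = 0.00781, unadjusted, which is the smallest value that 8 pairs allow. Of all genes tested, 1.09% were higher at 30 months in all 8 mice and 1.8% were lower in all 8.

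The call for Krt1 depended on the test. DESeq2's Wald test with a term for each mouse gave the same log2 change of 1.02 with an adjusted p of 0.00133, and it called 1.14% of all genes, Krt1 being the only keratin of the 10 among them. With edgeR the adjusted p of Krt1 ranged from 0.106 to 0.488 over the other settings and the mice left out in turn, and the log2 change was lowest, at 0.83, without mouse 50.

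In Krt10, the type I chain of the suprabasal filaments, levels at 24 months ran from 8975 to 13648 CPM with a median of 11367. At 30 months they ran from 6671 to 12874 CPM with a median of 8669, and 4 of 8 libraries lay below every library at 24 months. Only mice 43 and 75 had higher values at the later age. The fitted log2 change was -0.36 (SE 0.14, paired edgeR adjusted p = 0.352), and the exact sign-flip permutation p was 0.0312, unadjusted.

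Krt2, the most abundant keratin of the ear, ran from 13078 to 18611 CPM at 24 months, with a median of 16495, and from 6003 to 19805 CPM at 30 months, with a median of 11916. At 30 months 5 libraries were below all those at 24 months and 1, from mouse 75, was above them. Mouse 29 showed the largest difference, from 18611 to 6003 CPM, followed by mouse 50 with 16360 and 8407 CPM. Its fitted log2 change was -0.44 (SE 0.21, paired edgeR adjusted p = 0.428), and the exact sign-flip permutation p was 0.0781. Without mouse 29 the log2 change was -0.27.

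**Figure D2:**
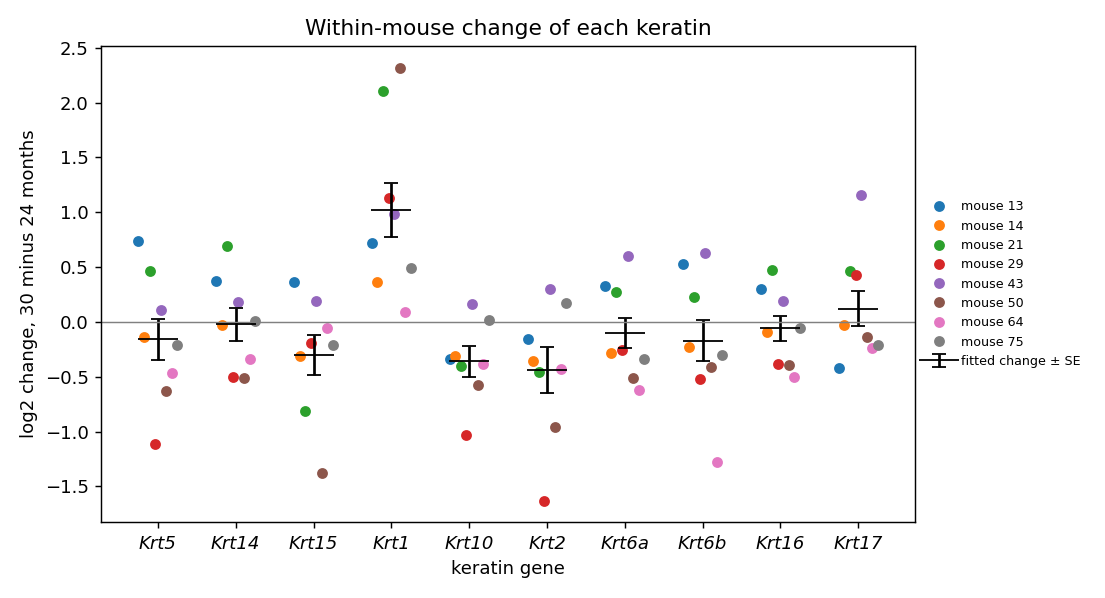
Log2 change in CPM from 24 to 30 months for each keratin and mouse (coloured points), with the fitted change ± standard error in black and a grey line at no change. Krt1 is the only keratin whose 8 points all lie above the line, from 0.09 to 2.32, and the points of the other 9 keratins lie on both sides.

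Krt10 and Krt2 varied together. Their within-mouse log2 changes had the same sign in 8 of 8 mice, with a Pearson's r of 0.98 over 8 mice, and their log2 CPM had an r of 0.92 over the 16 libraries. Both values describe libraries that share depth and tissue make-up. Krt1 did not follow them: its changes had an r of -0.31 with those of Krt10 and -0.38 with those of Krt2. At 24 months, by contrast, Krt1 varied over the 8 mice with both, at an r of 0.93 with Krt10 and 0.89 with Krt2, and at 30 months these values were -0.15 and -0.38.

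Since Krt1 and Krt2 are both type II partners of Krt10, the per-length ratios were taken within each library, where the library size cancels out. The length of Krt1 was its 4415 bases of annotated exon. With its longest coding transcript, of 2455 bases, each Krt1 ratio would be higher, by the same factor at both ages. The ratio of Krt1 to Krt10 was 0.0176, 0.0210, 0.0217, 0.0189, 0.0183, 0.0181, 0.0203 and 0.0223 at 24 months, in the order of mice given above. At 30 months it was 0.0368, 0.0337, 0.1230, 0.0848, 0.0322, 0.1350, 0.0282 and 0.0308. The ages did not overlap, and mice 21, 29 and 50 stood well above the other 5. The within-mouse log2 change of the ratio averaged 1.38 ± 0.98 (SD, n = 8) and stayed between 1.17 and 1.52 with any mouse left out. Of the other 20115 genes tested, 0.229% had a ratio to Krt10 that was above all 24-month libraries in all 8 libraries at 30 months.

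The ratio of Krt1 to Krt2, examined after the values were seen, showed the same separation. It ran from 0.0149 to 0.0199 at 24 months and from 0.0246 to 0.147 at 30 months, with a within-mouse log2 change of 1.47 ± 1.19 (SD, n = 8). For the ratio to Krt2, 0.134% of genes tested were separated in this way. Krt2 to Krt10 changed by -0.08 ± 0.27 on the log2 scale and was lower in 5 of 8 mice, with a mean of -0.01 without mouse 29.

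**Figure D3:**
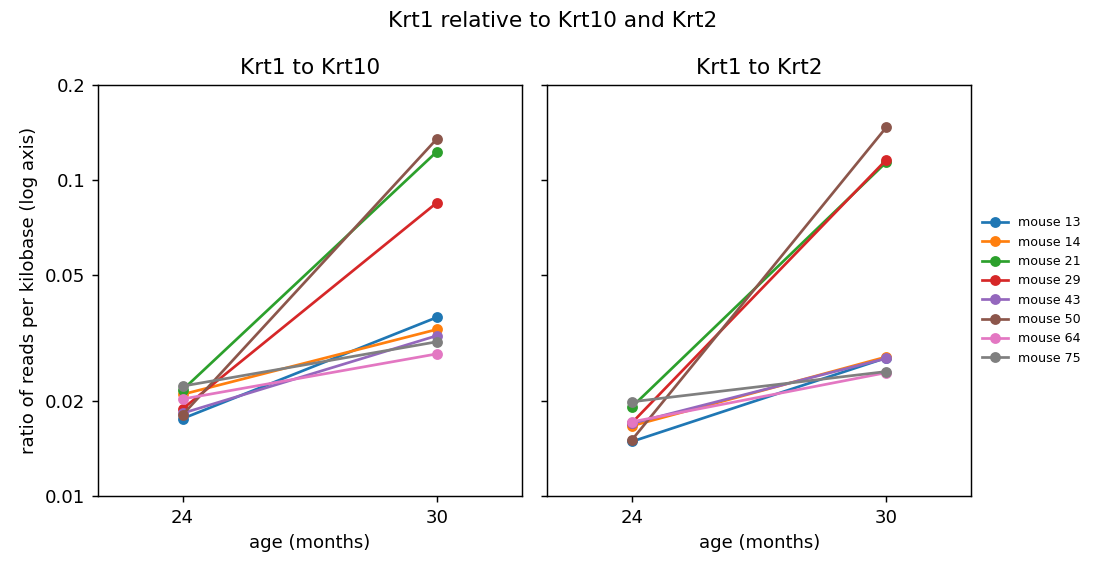
Ratio of Krt1 to Krt10 (left) and to Krt2 (right) in reads per kilobase of annotated exon, on a log axis, with a line for each of the 8 mice from 24 to 30 months. All 8 values at 30 months lie above all 8 at 24 months in both panels, and mice 21, 29 and 50 end highest, between 0.0848 and 0.147.

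These 3 mice were singled out by their Krt1 values, and sums of 9 gene lists and 11 marker lists were at hand to set beside them. Endothelial markers were also high in these 3 mice. The summed CPM of 8 endothelial markers was 134 to 186 at 24 months and reached 340, 354 and 382 at 30 months in mice 21, 29 and 50, and was 143 to 247 in the other 5. The summed CPM of a list of stress and wound genes other than keratins was also highest in them at 30 months. It was 244, 371 and 194 CPM in mice 21, 29 and 50, with mouse 43 close at 193 CPM. At 24 months mouse 64 had 266 CPM. The fibroblast, macrophage and T cell lists did not follow the 3 mice together. At 30 months the summed fibroblast markers were 5533, 2614 and 14281 CPM in mice 21, 29 and 50, the lowest of the 16 libraries being that of mouse 29 and the highest that of mouse 50. The macrophage sums were 591, 783 and 1604 CPM and the T cell sums 184, 70.5 and 316 CPM in the same order. The part of these cells and of the stress and wound genes in the Krt1 values was not tested.

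The upstream sequences of Krt10 and Krt2 are printed because these genes varied together. RefSeq promoters (GRCm38.p6) were at hand for 4 of the 10 keratins, and the start given there equalled that of the main GENCODE transcript for Krt10 and Krt2. The 120 bases before the start are given 5′ to 3′ on the coding strand, at chr11:99389365-99389484 for Krt10 and chr15:101818170-101818289 for Krt2, with TATAA in capitals.
Krt10: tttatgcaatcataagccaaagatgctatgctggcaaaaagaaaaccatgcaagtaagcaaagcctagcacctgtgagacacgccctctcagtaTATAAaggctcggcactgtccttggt
Krt2: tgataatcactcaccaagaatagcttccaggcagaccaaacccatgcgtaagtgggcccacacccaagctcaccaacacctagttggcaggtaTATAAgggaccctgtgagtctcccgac

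TATAA started 26 bases before the start of Krt10 and 27 bases before that of Krt2, and 22.8% of 32851 promoters held these letters on either strand in the 250 bases before the start. The longer form TATAAA, which contains it, was present in Krt10 and in 12.4% of promoters. Neither TGANTCA (the AP-1 motif), GCCNNNGGC (AP-2) nor GGGCGG (the GC box) was in the 250 bases before Krt10, Krt2 or Krt5, searched on both strands, against 6.75%, 13.7% and 32.7% of promoters. The short form TATAA was added to the search after the sequences had been seen.

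The pair of the basal layer, Krt5 and Krt14, differed little in mean between the ages but spread out at 30 months. Krt14 ran from 3707 to 4721 CPM at 24 months, with a median of 4395, and from 3176 to 6888 CPM at 30 months, with a median of 4387. It was higher in 4 mice and lower in 4, with 2 libraries at 30 months above and 3 below all those at 24 months. The fitted log2 change was -0.02 (SE 0.15, paired edgeR adjusted p = 0.968), with the direction depending on the mouse left out.

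Krt5 ran from 3648 to 4938 CPM at 24 months and from 2216 to 6445 CPM at 30 months, with medians of 4675 and 4320. Mice 13 and 21 were the high ones, at 6086 and 6445 CPM, and mouse 29 the low one at 2216 CPM. Its fitted log2 change was -0.16 (SE 0.19, paired edgeR adjusted p = 0.748), and it was -0.02 without mouse 29 and -0.28 without mouse 13. The changes of Krt5 and Krt14 had an r of 0.92 over 8 mice and the same sign in 7. The per-length ratio of Krt5 to Krt14 was 0.699 to 0.878 at 24 months and 0.53 to 0.902 at 30 months, lower in 7 of 8 mice by a mean log2 change of -0.14 ± 0.27 (SD, n = 8), which was -0.07 without mouse 29.

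Krt15, a type I keratin of basal cells and of the follicle bulge, ran from 1208 to 1986 CPM at 24 months and from 752 to 2005 CPM at 30 months, with medians of 1637 and 1409. Mice 50 and 21, those with the most Krt1, had the least Krt15 at 30 months, with 752 and 958 CPM. For Krt15 the fitted log2 change was -0.30 (SE 0.18, paired edgeR adjusted p = 0.517), with lower values in 6 of 8 mice, and it was -0.15 without mouse 50. Its changes had an r of -0.77 with those of Krt1 over 8 mice, the most negative value of any pair among the 10 keratins. Mice 21 and 50 had both the largest rises of Krt1 (log2 changes of 2.11 and 2.32) and the largest falls of Krt15 (-0.81 and -1.38). In the other mice the change of Krt15 lay between -0.31 and 0.36. The r was not computed without mice 21 and 50. Against Krt14, the per-length ratio of Krt15 reached 0.138 in mouse 21 and 0.236 in mouse 50, below its range of 0.282 to 0.433 at 24 months.

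Between the layers, the per-length ratio of Krt10 to Krt14 ran from 1.79 to 2.4 at 24 months and from 1.09 to 2.33 at 30 months. It was lower in 7 of 8 mice, with a mean log2 change of -0.34 ± 0.40 (SD, n = 8). In mice 43, 64 and 50 the change was only -0.01, -0.05 and -0.08. Mice 13 and 21 both ended at 1.09, and the mean was -0.24 without mouse 21. The ages overlapped.

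Of the stress and wound keratins, none of Krt6a, Krt6b, Krt16 and Krt17 differed between the ages beyond the spread between mice. Krt6a ran from 125 to 203 CPM at 24 months and from 111 to 227 CPM at 30 months, and the fitted log2 change was -0.10 (SE 0.14, paired edgeR adjusted p = 0.772), between -0.20 without mouse 43 and -0.03 without mouse 64. Krt6b, its near-identical copy, ran from 39.1 to 76.8 and from 31.7 to 65.3 CPM, with a log2 change of -0.17 (SE 0.19, adjusted p = 0.726), and this was -0.28 without mouse 43 and -0.01 without mouse 64. Each was higher in 3 of 8 mice, and the direction was the same for both genes in 8 of 8 mice, with the shared stretches described above.

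Krt16, the type I partner of Krt6, ran from 279 to 352 CPM at 24 months and from 234 to 453 CPM at 30 months. The fitted log2 change was -0.06 (SE 0.11, paired edgeR adjusted p = 0.847). Its changes followed those of Krt14 most closely, with an r of 0.97 over 8 mice, and these genes share 188 of the 50-base stretches of Krt14. Krt17, also a type I keratin, ran from 177 to 406 CPM and from 235 to 484 CPM, with a log2 change of 0.12 (SE 0.16, adjusted p = 0.766), and was higher in 3 of 8 mice. Mouse 43 had the lowest Krt17 at 24 months, 177 CPM, and the largest difference, to 396 CPM.

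The ratio of Krt6a to Krt17 was lower in 7 of 8 mice, by a mean log2 change of -0.23 ± 0.44 (SD, n = 8), with mouse 13 as the exception, and the mean was -0.37 without that mouse. Krt6a to Krt16 changed by -0.04 ± 0.23 and Krt6b to Krt6a by -0.07 ± 0.27 on the same scale, and the latter was 0.02 without mouse 64.

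**Figure D4:**
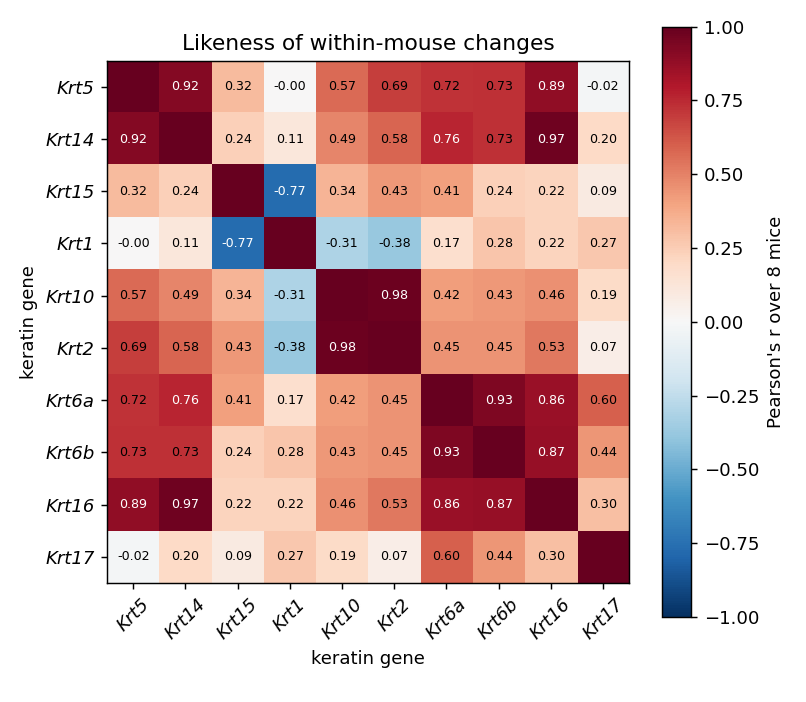
Pearson's r between the within-mouse log2 changes of each pair of the 10 keratins over 8 mice, coloured from -1 (blue) to 1 (red). Krt10 with Krt2 (0.98), Krt14 with Krt16 (0.97) and Krt6a with Krt6b (0.93) form the deepest red cells, and Krt1 with Krt15 (-0.77) the deepest blue one.

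All 10 keratins varied more between mice at 30 than at 24 months, as measured by the coefficient of variation of CPM. The widest contrasts were Krt1 with 18.7% and 64%, Krt5 with 10.5% and 35.1%, Krt2 with 12.3% and 34.9%, Krt14 with 7.66% and 28.1%, and Krt16 with 7.49% and 22.8%. Krt6b, with 22.2% and 25.5%, and Krt17, with 22.3% and 27.6%, showed the smallest contrast. Such a difference was the rule in these libraries, since 78.2% of all genes tested had the larger coefficient at 30 months. The count stayed at 10 of 10 with any mouse left out.

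**Figure D5:**
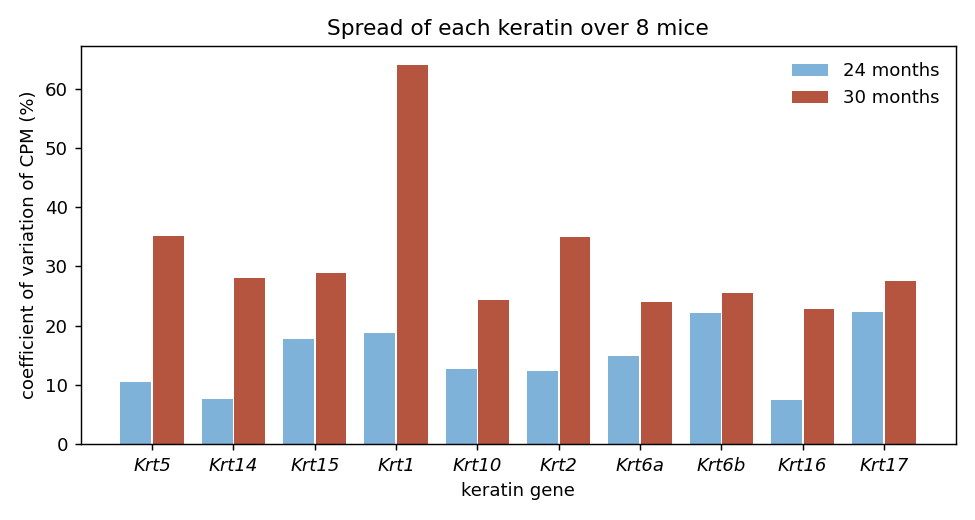
Coefficient of variation of CPM over 8 mice (vertical axis, percent, from 0) for each keratin at 24 months (blue bars) and 30 months (red bars). The red bar is the taller one for all 10 keratins, with Krt1 at 64% as the tallest.

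Lists of other genes of the epidermis held no gene past the adjusted threshold in the paired edgeR test, and the median log2 change over all genes tested was 0.01, against -0.13 for the 10 keratins. Among 15 desmosome genes, which anchor keratin filaments at cell contacts, 13 had a log2 change below 0, with a median of -0.18, and 7 had an unadjusted p under 0.05, each of them lower, where 12.2% of all genes tested had one in either direction. The cadherin gene Dsg1b was the lowest at -0.72, with 260 ± 30.9 CPM at 24 months and 166 ± 60.2 at 30 months (paired edgeR adjusted p = 0.211), and Pkp2 the highest at 0.17 (adjusted p = 0.679). Of 16 keratinocyte transcription factors, 13 were below 0 and 4 had an unadjusted p under 0.05, all lower, with a median of -0.09 over the list. Klf5 was lowest at -0.44.

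Of 12 hemidesmosome and basement membrane genes 7 were below 0, none with an unadjusted p under 0.05, and the median was -0.02, between Lama3 at -0.28 and Dst at 0.20. Late differentiation genes were balanced, with 7 of 14 tested above 0 and a median of 0.01, from Tgm3, a transglutaminase, at -0.37 to the protease gene Asprv1 at 0.25. Stress and wound genes other than keratins had 12 of 14 tested above 0 and a median of 0.59. Of these 14, 4 had an unadjusted p under 0.05, against 12.2% of all genes tested. Of the 4, 3 were higher and Mmp9, at -1.07, was lower. The largest log2 change in that list was that of S100a9, 1.23 with a standard error of 0.94, although its mean CPM was 4.92 at 24 and 4.50 at 30 months. All 12 cell division genes lay below 0 with a median of -0.20, from Top2a at -0.43 to Plk1 at -0.09. None had an unadjusted p under 0.05. Their summed CPM went from 464 to 110 in mouse 29, a log2 change of -2.08. In the other mice the log2 change of the sum lay between -0.26 and 0.59.

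Among the other keratins, 7 of 12 tested genes of simple and stratified epithelia were below 0 (median -0.15), from Krt4 at -0.38 to Krt13 at 0.15. All 8 tested keratins of the hair follicle sheath were below 0 (median -0.74), from Krt71 at -1.56 to Krt74 at -0.17, and 7 of 10 of the hair shaft (median -0.47), from Krt34 at -0.86 to Krt84 at 0.66. Their levels were low and uneven, with summed sheath keratins between 11.8 and 241 CPM at 24 months and between 17.8 and 64.7 CPM at 30 months. The 241 CPM came from mouse 75 alone, and the other libraries at 24 months reached at most 52.4 CPM. Summed hair shaft keratins at 24 months were 113 CPM in mouse 75 and at most 16.5 CPM in the others. Each sum was higher at 30 months in 3 of 8 mice for the sheath and 3 of 8 for the shaft.

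Markers of the cell types in the ear varied between libraries. Keratinocyte markers outside the keratins summed to 7198 to 8370 CPM at 24 months and 5515 to 8024 CPM at 30 months, with 7 of 8 below 0 and mouse 50 lowest. Skeletal muscle markers varied most, from 721 to 9338 CPM at 24 months and from 1038 to 7077 CPM at 30 months, with 8 of 8 above 0. Also above 0 were 8 of 8 endothelial, 7 of 8 fat cell, 7 of 8 macrophage, 7 of 8 sebaceous gland, 7 of 8 Schwann cell and 4 of 7 T cell markers. All 7 tested cartilage markers, all 7 tested pigment cell markers and 6 of 8 fibroblast markers were below 0. Of all genes tested, 12.2% had an unadjusted p under 0.05. Such a p was found for 5 of 8 endothelial markers, all higher, and 5 of 7 cartilage markers, all lower. It was also found for 1 marker each of fat cells, T cells and Schwann cells, all higher, for 1 each of pigment cells and keratinocytes, both lower, and for none of the other 4 lists. No marker passed the adjusted threshold, and the part of tissue make-up in the keratin values was not tested.

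Over the 16 libraries, which come from 8 mice, the genes outside the 10 with the closest log2 CPM to Krt10 were Sdc1, a syndecan of keratinocytes (r = 0.94), Foxn1, a transcription factor of keratinocyte differentiation (0.91), Atp10b (0.91), Neo1 (0.91) and Gid4 (0.90). Those closest to Krt14 were Ltb4r1 (0.92), 9530053A07Rik (0.91), Gm6169, Plp2 and Ywhaz (0.84 each), and those closest to Krt6a were Map6 (0.95), Gm13669 (0.91), Bcam, Prpsap1 and Arhgap33 (0.89 each). For Krt2, added after the values were seen, they were Faah (0.95), Acad9 (0.94), Foxn1, Ssx2ip and Paqr5 (0.93 each), so that Foxn1 stood in the lists of both Krt10 and Krt2. Krt1, also added later, had Lgals9 (0.94), Mgat5b, Shisa5 (0.92 each), Tap2 (0.91) and Samhd1 (0.90). Tap2 is a peptide transporter of antigen presentation and Samhd1 a nucleotide hydrolase known to respond to interferon. Their paired edgeR adjusted p-values between the ages were 0.401 and 0.523. Krt1 itself was highest in mice 21 and 50 at 30 months, at 2331 and 2083 CPM, and r was not computed without these libraries. Why these genes varied with Krt1 was not tested.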

How the data were processed

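Ear skin RNA of 8 mice at 2 ages was sequenced from TruSeq RNA v2 libraries. The authors deposited 1 table of raw read counts per Ensembl gene for all 16 libraries. The submitters' processing notes name CASAVA 1.8.4, TopHat2 2.1.0, HTSeq 0.6.1p1 and the mm10 build, whereas the strand setting and the treatment of reads matching several genes are not given in the sources used here. Lines naming no gene, 18.7% to 21.1% of each library, stayed out of all library sizes. Of the identifiers, 45143 had a GENCODE M21 entry, which gave symbols and exon lengths.

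Counts were fitted with edgeR 4.0.16 (R 4.3.3; TMM, filterByExpr, glmQLFit, glmQLFTest) with a term for each mouse, and p-values were adjusted by Benjamini and Hochberg over 20116 genes. CPM used TMM library sizes, and fold changes are on the log2 scale. Likeness used log2 CPM with a prior count of 2. Single keratins were also tested by an exact sign-flip test over 256 sign patterns. Library totals had a median of 28922265, and with 8 mice the spread between mice limits precision. Pairing comes from the same animal; same-mouse deviations correlated at a median of -0.0256 (from -0.446 to 0.253), and those of different mice at -0.00441. Both tests were tested on simulated data.

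The keratins, gene lists, marker lists and tests were chosen with earlier results of these data known. From each of the 9 gene lists the genes with the highest and the lowest log2 change were named, and for Krt14, Krt10 and Krt6a the 5 genes of highest Pearson's r. Alternatives were DESeq2 1.42.0 (size factors, Wald test), unscaled library sizes, no filter, no mouse term, age as a covariate, and each mouse left out. Il36a and Krt85 were not analysed here, and 1 gene that this rule names is not reported here.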

Additional observations from a re-analysis of the deposited data

Results flagged for a closer look

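The 41 sets of 8 values examined were each keratin at each age, its within-mouse change, the within-mouse ratio changes and the summed share. The levels of the ratios at each age were not among them. Of the 41 sets, 1 held a mouse far from the others, where chance gives about 1 in 20, or 2.05 sets. The log2 change of Krt6a to Krt17 was 0.75 in mouse 13, and its gap to the next mouse was 0.612 of the whole range, above the critical value of Dixon's test. The other 7 mice lay between -0.69 and -0.13. In mouse 13 Krt6a was 148 and 186 CPM and Krt17 314 and 235 CPM at 24 and 30 months.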

How the results depend on the processing

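The number of keratins past an adjusted p of 0.05 was 0 under every edgeR setting and 1, Krt1, with DESeq2's Wald test. The number at an unadjusted p under 0.05 was 2, and from 1 to 3 with each mouse left out: it was 1 without mouse 14, 21, 29, 50 or 64. The log2 change of Krt1 was above 0 in every setting run, from 0.83 to 1.23. Without the replicate block, log2 changes were 1.23 for Krt1 (edgeR adjusted p = 0.106), -0.33 for Krt10, -0.37 for Krt2 and 0.03 for Krt14, which reversed its direction, and the block changed no call. The direction of Krt14 also turned without mouse 29 (0.05), 50 (0.05) or 64 (0.03), over a range of -0.11 to 0.05. Krt17 went to -0.02 without mouse 43, over a range of -0.02 to 0.20, and Krt16 ended just above 0 (0.00) without mouse 64, over a range of -0.13 to 0.00. None of these values had passed the test, and the cause was not tested. The median log2 change of the 10 keratins was from -0.22 to -0.02 with each mouse left out, and it was -0.02 without mouse 64. The other small changes of single keratins and ratios also moved with the mouse left out, and the extremes stand beside Krt2, Krt5, Krt15, Krt6a and Krt6b. Small differences may have gone undetected, because the spread between 8 mice limits precision. Ratios to Krt2, the spread with mice left out, and transcript lengths were examined after the data had been seen.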
